A study of Rattus norvegicus with 6 samples.

Results

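The Kruppel-like factors (KLF) are zinc finger transcription factors, and 10 genes of this family, Klf2, Klf3, Klf4, Klf5, Klf6, Klf9, Klf10, Klf11, Klf13 and Klf15, were examined in H9c2 cells after hypoxia/reoxygenation (H/R). Members were found through the RefSeq mRNA accession that each array probe carries. All 10 were matched, each by a single probe, out of 13823 protein-coding genes named on the array. H9c2 is a myoblast line from embryonic rat heart. The H/R group comprised 3 samples from cells kept without serum and glucose, first for 1 h in 1% oxygen, 5% carbon dioxide and 94% nitrogen and then for 3 h at normal oxygen. The control group comprised 3 samples from cells kept at normal oxygen, and the labels do not state the medium those cells were in during the experiment. Before the experiment all cells were cultured with 10% serum and glucose at 4500 mg/L, so oxygen, serum and glucose cannot be told apart as the difference between the groups. The design asked which transcripts differ in level after H/R.

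KLF proteins share a block of zinc fingers at their C-terminal end that binds GC-rich and CACCC-type DNA elements, and they differ in the N-terminal part, which recruits activators or repressors. By that part the family is usually sorted into a subgroup that binds the corepressor CtBP (Klf3 among the members), a subgroup that acts mainly as activators (Klf2, Klf4, Klf5 and Klf6) and a subgroup that binds the corepressor Sin3 (Klf9, Klf10, Klf11 and Klf13), with Klf15 outside these. Many KLF genes are induced quickly and transiently by serum, hormones, shear stress or injury. In heart muscle Klf15 is known as a brake on hypertrophy and a regulator of fuel use.

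Labelled RNA was hybridised to 1-colour Agilent arrays, and the scanner intensity of each probe was divided by the 75th percentile over all probes of its array, so that signals below are percentages of that percentile and changes are differences of log2 values, H/R minus control. Replicates 2 and 3 of each group were read from the same array position in 2 scans. They shared 36 spots with a flag for uneven background in either group, against at most 1 in any other pair of files, and their spots had a median difference of 0.0166 (H/R) and 0.0155 (control) log2 units, where other pairs of a group had 0.106 to 0.143. They were counted as 1 array, which leaves 2 arrays in each group, and although the labels speak of separate experiments, p-values measure the spread between arrays, which may be technical. All arrays shared 1 slide, each at another position, and therefore position cannot be told apart from group. Between 60.8% and 71.1% of spots were well above background in H/R files and between 58.4% and 61.7% in control files, and 0 spots were saturated. All 10 muscle markers examined (among them Des, Myod1, Actc1 and Tnnt2) were well above background in every scan, as were 5 of 5 fibroblast markers, and so were 1 of 3 endothelial markers (Tek) and 3 of 6 macrophage markers (Csf1r, Cd68 and Cd14). The endothelial markers Pecam1 and Cdh5 and the macrophage markers Ptprc, Adgre1 and Itgam were well above background in no scan. In bulk RNA, fewer cells that express a gene and less RNA of it per cell cannot be told apart.

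After H/R the family split into rises and falls. Klf15, Klf4, Klf3 and Klf6 rose, Klf9, Klf5, Klf13, Klf2 and Klf10 fell, and Klf11 did not pass the test (limma, Benjamini-Hochberg adjusted p under 0.05 over 15899 probes, 2 arrays per group). The changes ran from a 3.32-fold rise of Klf15 to a fall of Klf9 to 40.5% of control. Of all 10003 protein-coding genes tested, 16.2% rose and 9.62% fell. In 9 of 10 members all 3 H/R scans lay on one side of all 3 control scans, a pattern seen in 66.1% of the protein-coding genes tested, so that separation by itself is common on these arrays. At least 2-fold changes that also passed the test were found in 5 of 10 members and in 6.53% of the genes tested. The median change of the members was -0.17 on the log2 scale and their median absolute change was 0.88, beside 0.07 and 0.27 over all protein-coding genes tested. Members were chosen with earlier results of these data known, so these figures describe the members and are no test of the family. The 8 other KLF and SP genes tested had a median absolute change of 0.30.

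**Figure D1:**
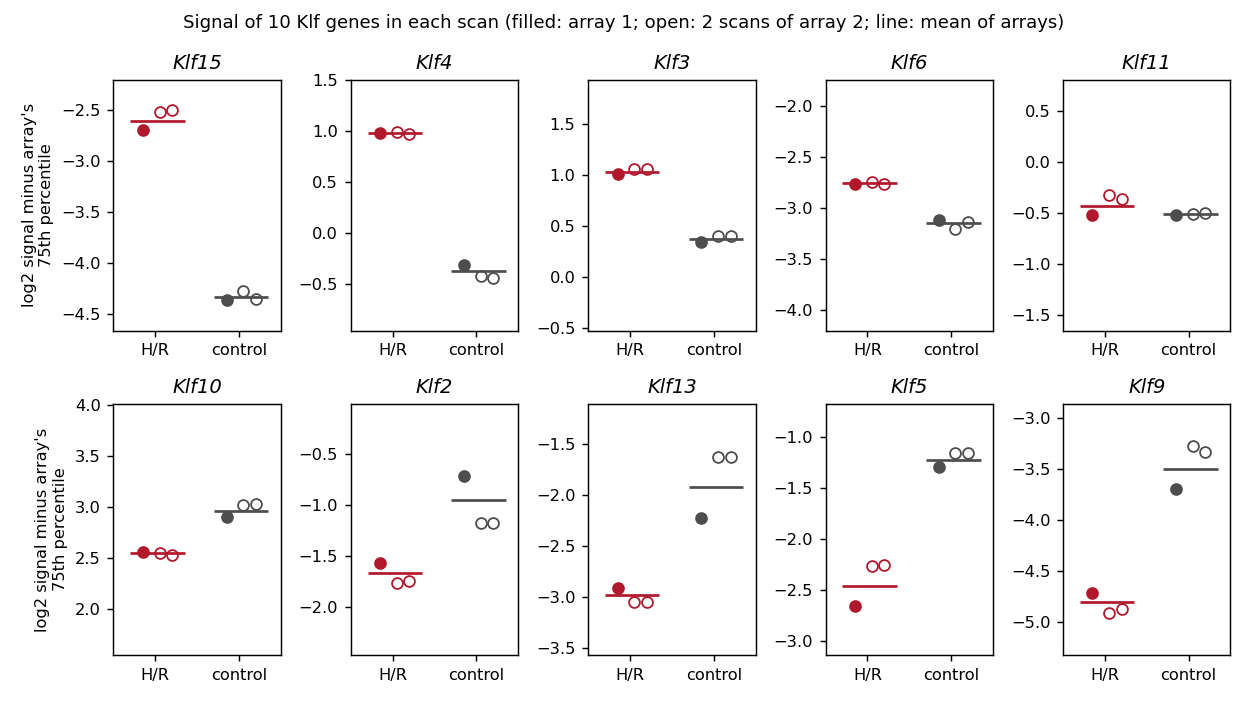
Signal of each Klf gene in each scan, as log2 signal minus the array's 75th percentile, in H/R (red) and control (grey); the filled point is array 1, the open points are the 2 scans of array 2, and the line is the mean of the 2 arrays. Every panel spans the same number of log2 units; the groups are apart in all panels but that of Klf11.

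The largest change of the family was that of Klf15, which encodes the factor that restrains hypertrophic growth in heart muscle. Its signal was 15.4%, 17.4% and 17.6% of the array's 75th percentile in the H/R scans, against 4.86%, 5.16% and 4.90% in the control scans. The groups were far apart and the scans within each were close together. On the log2 scale H/R averaged -2.61 ± 0.13 and control -4.34 ± 0.03 (SD, n = 2 arrays each), a rise of 1.73 ± 0.11 (moderated SE, adjusted p = 0.00225), or 3.32-fold with a 95% interval of 2.73 to 4.04. Of the protein-coding genes tested, 1.62% had a larger absolute change. The call held with each array left out in turn, where adjusted p lay between 0.0146 and 0.0222.

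Among the activators, Klf4 and Klf6 rose and Klf2 and Klf5 fell. Klf4, one of the factors that reprogram differentiated cells and a repressor of the contractile programme of smooth muscle, gave signals of 197%, 198% and 197% in the H/R scans, against 80.7%, 74.6% and 73.8% in the control scans. The H/R arrays were nearly identical and stood well clear of the control arrays. The rise was 1.35 ± 0.10 on the log2 scale, or 2.55-fold with a 95% interval of 2.14 to 3.04 (adjusted p = 0.00301), and it held without each array in turn (adjusted p 0.0157 to 0.0290). Klf6, an early-response gene of tissue injury, had 14.7%, 15% and 14.7% in H/R and 11.5%, 10.9% and 11.4% in control scans. The groups did not overlap, but the step was small, 0.39 ± 0.09 on the log2 scale or 1.31-fold (adjusted p = 0.0402). Its call was lost without any 1 of the 4 arrays. The changes there were 0.39 without H/R array 1, 0.38 without H/R array 2, 0.41 without control array 1 and 0.36 without control array 2, with adjusted p of 0.157, 0.173, 0.0982 and 0.103.

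Klf5, which promotes proliferation of smooth muscle cells and fibroblasts, gave 15.8%, 20.8% and 20.9% in the H/R scans, against 40.6%, 44.7% and 44.8% in the control scans. All H/R scans were below all control scans, with H/R array 1 the lowest. Klf5 fell by 1.23 ± 0.16 on the log2 scale, to 42.5% of control (95% interval 31.7% to 57.0%, adjusted p = 0.0103). Without H/R array 1 the change was -1.03 and without H/R array 2 it was -1.43, and the call held in both cases (adjusted p = 0.0408 and 0.0278). Klf2, best known as a flow-induced factor that keeps endothelium quiescent, gave 33.7%, 29.6% and 29.8% in H/R and 60.8%, 44.3% and 44.4% in control. The control arrays differed from each other by nearly as much as the lower of them differed from H/R. Klf2 fell by 0.71 ± 0.18 on the log2 scale, to 60.9% of control, at an adjusted p of 0.0487. That call was lost without control array 1 (-0.49, adjusted p = 0.101), without H/R array 1 (-0.81, 0.120 as adjusted p) and without H/R array 2 (-0.62, 0.188 as adjusted p). Of the endothelial markers on the array only Tek, which encodes an angiopoietin receptor, was well above background. It rose 2.16-fold (adjusted p = 0.00848), and the summed level of the 3 endothelial markers on the array was 0.0963 to 0.116 times the 75th percentile in H/R scans and 0.0506 to 0.0549 times in control scans. That sum is mostly Tek itself, at 9.01% to 11.2% in H/R scans and 4.49% to 4.86% in control scans. Whether endothelial cells were present, and their part in the Klf2 value, was not tested.

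Klf3, the member of the CtBP subgroup, encodes a repressor with known roles in fat and muscle gene expression. It gave 201%, 209% and 208% in the H/R scans, against 127%, 132% and 132% in the control scans. Both groups were tight, with SDs of 0.04 on the log2 scale (n = 2 arrays each). Klf3 rose by 0.66 ± 0.09, or 1.58-fold with a 95% interval of 1.34 to 1.87 (adjusted p = 0.0122). Without H/R array 1 the change was 0.69 (adjusted p = 0.0680) and without H/R array 2 it was 0.63 (adjusted p = 0.0797), so the size was kept and the call was lost.

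In the Sin3-binding subgroup, a textbook grouping applied after values were seen, 3 of 4 members fell and 0 rose, beside 9.62% and 16.2% of all protein-coding genes tested. Of 2 further tested genes of that subgroup, Klf16 fell and Klf14 did not pass. Klf9, which glucocorticoids and thyroid hormone induce, gave 3.80%, 3.31% and 3.41% in the H/R scans, against 7.71%, 10.3% and 9.88% in the control scans. Klf9 fell by 1.30 ± 0.16 on the log2 scale, to 40.5% of control (95% interval 30.2% to 54.4%, adjusted p = 0.00919). All H/R scans were below all control scans, of which array 1 was the dimmest. The change was -1.22 without H/R array 2, where the call was lost (adjusted p = 0.0565). Klf13, which takes part in heart development in Xenopus, gave 13.3%, 12.1% and 12.1% in H/R and 21.5%, 32.3% and 32.5% in control. The H/R scans were close together and the control arrays were far apart, with an SD of 0.42 on the log2 scale in control and 0.10 in H/R (n = 2 arrays each). Klf13 fell by 1.05 ± 0.21, to 48.2% of control (95% interval 32.8% to 70.9%, adjusted p = 0.0289). The change was -1.35 without control array 1 and -0.76 without control array 2. The call was lost without H/R array 1 (-1.12, adjusted p = 0.0956) and without H/R array 2 (-0.98, adjusted p = 0.124).

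Klf10 and Klf11 are the genes known as early targets of TGF-beta. Klf10 gave 588%, 582% and 576% in the H/R scans, against 745%, 811% and 814% in the control scans. The groups were apart but the step was modest. Klf10 fell by 0.41 ± 0.10 on the log2 scale, or 1.33-fold lower than in control (adjusted p = 0.0411), and the call was lost without any 1 of the 4 arrays, with changes from -0.48 to -0.35 and adjusted p from 0.0756 to 0.175. Klf11 gave 69.5%, 79.6% and 77.8% in H/R and 69.5%, 70.2% and 70.4% in control, and its groups overlapped. Its change was 0.08 ± 0.11 (95% interval -0.20 to 0.36, adjusted p = 0.604), and its sign turned when arrays were scaled to their median (-0.05) or without H/R array 2 (-0.01).

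**Figure D2:**
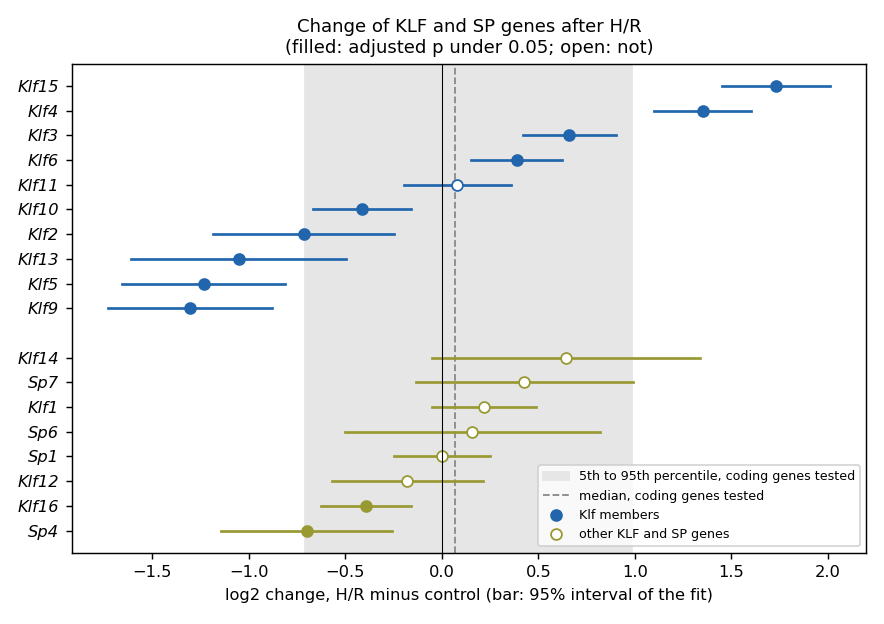
Change of each KLF and SP gene in log2 units (H/R minus control, n = 2 arrays each), with bars for the 95% interval of the limma fit and filled points for adjusted p under 0.05. Klf15, Klf4, Klf13, Klf5 and Klf9 lie outside the grey band, and Klf2 lies just outside its lower edge. The band runs from the 5th to the 95th percentile of protein-coding genes tested (-0.71 to 0.99), and the dashed line is their median.

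A setting with another background correction and another spot signal removed every call. It changed the size of several falls, most of all that of Klf9, whose probe was dim (3.31% to 3.80% in H/R scans). The setting added an offset of 50 units to corrected values and used the median spot signal in place of the scanner intensity used elsewhere. The part of each of these steps in the changes was not tested. With normexp correction of the median spot signal, under which the median change over all probes was 0.33 in place of 0.07, 0 members and 0 of 15899 probes passed (2044 probes had an unadjusted p under 0.05 in limma). Relative to the median change of its own fit, Klf15 was at 1.24 (1.66 in the fit first given) and Klf4 at 0.91 (1.28). Klf5 was at -1.14 (-1.30), Klf2 at -0.86 (-0.78), Klf13 at -0.82 (-1.12) and Klf10 at -0.81 (-0.48), whereas Klf9 was at -0.41 (-1.37). Klf3 and Klf6 were at 0.20 (0.59) and 0.37 (0.32). Before subtraction of the median the change of Klf9 was -0.08, of Klf13 -0.49 and of Klf5 -0.80, beside -1.30, -1.05 and -1.23 as first given. Klf10 was then at -0.48 and Klf2 at -0.52, beside -0.41 and -0.71. The rises were 1.58 for Klf15, 1.24 for Klf4, 0.54 for Klf3 and 0.70 for Klf6, beside 1.73, 1.35, 0.66 and 0.39. Without the filter on dim probes the calls of Klf15 and Klf4 were kept and the other 7 were lost.

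**Figure D3:**
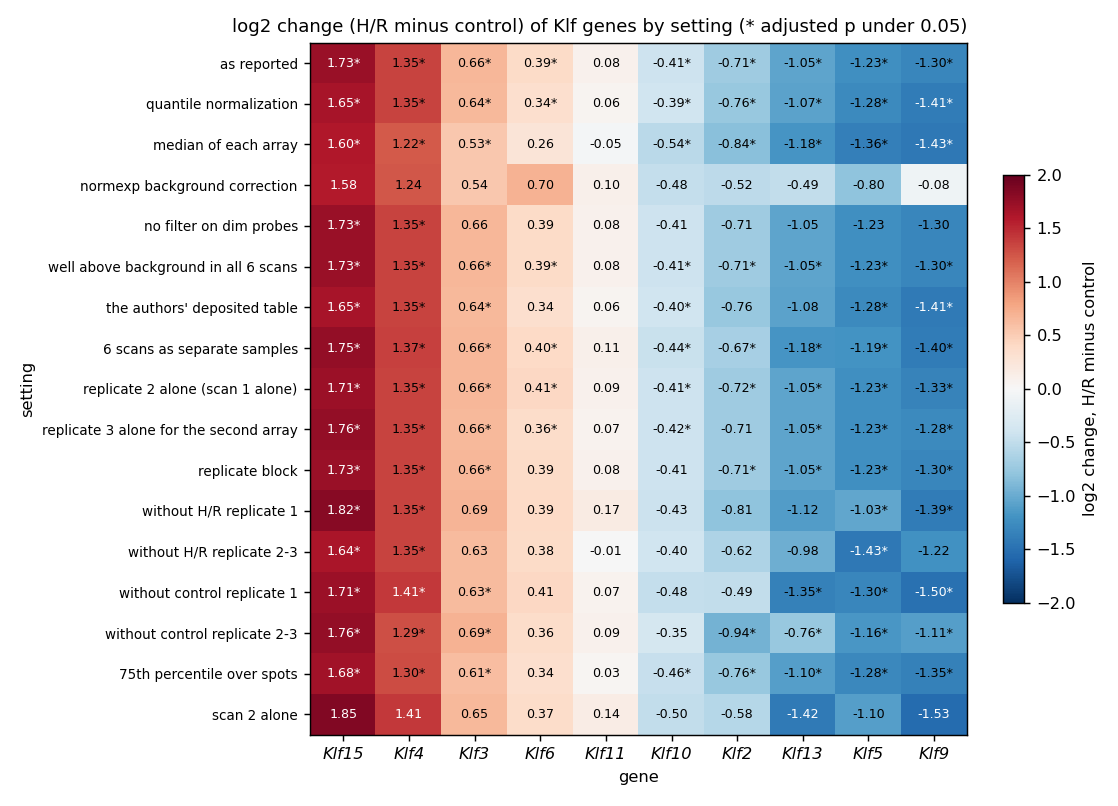
Change of each Klf gene in log2 units (H/R minus control) in each setting, one setting a row, with a star where the adjusted p was under 0.05. Klf15 and Klf4 kept the star in all rows but normexp and the single pair of scans, which has no test; Klf9 is near 0 under normexp.

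Promoter sequences of members are given as a description, and their part in the changes was not tested. RefSeq promoter windows, 250 bases before to 50 bases after a transcript start in the GRCr8 assembly, were at hand for 7 of 10 members. In Klf5, Klf6 and Klf9 the start is the outer end of the annotated gene, and for that reason these 3 windows are given whole, 5′ to 3′ on the strand of the gene. In Klf3, Klf4, Klf11 and Klf15 the start lies inside the annotated gene, and their windows are not printed whole. Capitals mark matches on either strand to CACCC, the GC box GGGCGG, the HIF core ACGTG, the core TGACG of the cAMP response element (CRE) and the CArG box bound by serum response factor.
Klf9 (chr1:230126396-230126695, + strand): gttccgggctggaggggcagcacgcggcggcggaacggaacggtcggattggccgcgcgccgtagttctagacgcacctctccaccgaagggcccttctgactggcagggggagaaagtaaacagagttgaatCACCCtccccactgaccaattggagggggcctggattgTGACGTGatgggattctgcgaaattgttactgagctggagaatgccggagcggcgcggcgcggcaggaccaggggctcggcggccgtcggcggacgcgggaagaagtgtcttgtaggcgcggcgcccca
Klf5 (chr15:82471831-82472130, + strand): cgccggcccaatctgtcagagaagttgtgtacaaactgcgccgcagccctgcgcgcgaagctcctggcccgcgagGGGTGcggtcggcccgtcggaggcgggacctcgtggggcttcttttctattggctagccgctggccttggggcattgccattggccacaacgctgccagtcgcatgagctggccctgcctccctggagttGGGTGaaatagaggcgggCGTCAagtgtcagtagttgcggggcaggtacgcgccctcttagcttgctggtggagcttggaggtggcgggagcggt
Klf6 (chr17:69458429-69458728, - strand): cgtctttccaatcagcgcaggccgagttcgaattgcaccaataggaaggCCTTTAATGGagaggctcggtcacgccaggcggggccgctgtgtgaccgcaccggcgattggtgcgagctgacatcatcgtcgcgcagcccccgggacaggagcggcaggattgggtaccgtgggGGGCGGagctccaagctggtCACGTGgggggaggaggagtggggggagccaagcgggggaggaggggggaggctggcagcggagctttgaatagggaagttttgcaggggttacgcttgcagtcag

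The windows differed in what they hold. Klf6 alone of the 7 had a CArG box, found in 1.64% of 33469 promoters of the same length. CACCC was present in 4 of 7 (54.9% of all promoters), the GC box in 3 of 7 (33.1%), the HIF core in 4 of 7 (19.3%) and the CRE core in 3 of 7 (21.2%). A CRE core that runs into a HIF core, TGACGTG, was found in 2 of 7 and in 1.81% of all promoters, and was looked for after the windows had been read. It occurred in Klf9, which fell, and in Klf15, which rose, and is shown in capitals in 30 bases from each, where the match begins 79 bases (Klf9) and 176 bases (Klf15) before the transcript start.
Klf9 (chr1:230126556-230126585, + strand): ggcctggattgTGACGTGatgggattctgc
Klf15 (chr4:124522828-124522857, + strand): ggcgcggctcgTGACGTGcagcgctagcca
The CRE palindrome TGACGTCA, the glucocorticoid receptor motif TGTTCT, the MEF2 site and the NF-kB site were matched in 0 of 7, beside 1.83%, 20.7%, 3.29% and 7.51% of all promoters. These are matches of letters in short windows and say nothing of binding. Median GC content was 51.7% over all promoters. In the windows it was 54.0% for Klf3, 45.0% for Klf4, 65.3% for Klf5 and Klf9, 64.7% for Klf6, 77.0% for Klf11 and 77.3% for Klf15. The shares over all promoters are not matched for GC content, and its part in the matches was not tested.

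The other KLF and SP genes were mostly not past the threshold. Of 17 further genes looked for, 8 were tested. The test called 2 as lower, 0 as higher and 6 as neither (9.62% of all protein-coding genes tested fell and 16.2% rose), and their median difference was 0.08. Klf16, another gene of the Sin3-binding subgroup, had a log2 change of -0.39 ± 0.09 and so fell (adjusted p = 0.0387), a call lost without any 1 array (changes from -0.41 to -0.37). Sp4, a GC-box factor that is abundant in neurons, fell by 0.70 ± 0.17 (adjusted p = 0.0447), but its probe was dim and its change was 0.86 under normexp and its call was lost without H/R array 2 (-0.47), control array 1 (-0.73) or control array 2 (-0.68). Klf14 differed by 0.64 ± 0.27 (adjusted p = 0.147; 1.02 and 0.0282 without control array 2, and 0.27 without control array 1), Klf1 by 0.22 ± 0.10 (adjusted p = 0.189) and Klf12 by -0.18 ± 0.15 (adjusted p = 0.422), and Klf12 stood at 0.84 under normexp. The probes of Klf14 and Klf12 were dim too, at 1.09% to 2.39% and 1.35% to 1.91% of the 75th percentile. Klf14 stood at 1.12 under normexp. Whether the 10 members differ from these other KLF and SP genes was not tested.

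Lists of genes tied to signals that induce KLF genes were examined next, and their counts stand beside the 16.2% of all protein-coding genes tested that rose and the 9.62% that fell. The list of glucocorticoid-induced genes, which includes the receptor, had 6 tested genes, of which 3 fell and 0 rose (median -0.22). Sgk1, which encodes a kinase induced by serum and glucocorticoid, averaged -1.82 ± 0.20 in H/R and 0.00 ± 0.03 in control (log2 scale, SD, n = 2 arrays each) and fell by 1.82 ± 0.13 (adjusted p = 0.00285). Tsc22d3, which encodes the leucine zipper protein GILZ, fell by 1.24 ± 0.25 (adjusted p = 0.0279), with changes of -0.93 without H/R array 1 and -1.04 without control array 1, where the call was lost, and of -0.54 under normexp. Fkbp5, which encodes a co-chaperone of the receptor, fell by 0.65 ± 0.12 (adjusted p = 0.0215), a call lost without H/R array 1 (-0.57), H/R array 2 (-0.72) or control array 2 (-0.56). For the receptor gene Nr3c1 the difference was 0.25 ± 0.09, short of the threshold (adjusted p = 0.113). The remaining tested genes of the list also lay above 0 and short of the threshold. Dusp1 differed by 0.27 ± 0.10 (adjusted p = 0.114) and Per1 by 0.21 ± 0.14 (adjusted p = 0.312). Beside these, Klf9 and Klf13 fell and Klf15 rose. Glucocorticoids are known to induce all of these Klf genes, and a part of glucocorticoids in their changes was not tested. In the TGF-beta list, 3 of 10 tested genes fell and 0 rose (median -0.11). Smad7, the inhibitory SMAD, fell by 0.89 ± 0.10 (adjusted p = 0.00782; -0.81 and an adjusted p of 0.0514 without H/R array 1). Tgif1, a SMAD corepressor gene, fell by 0.46 ± 0.10 (adjusted p = 0.0371), a call lost without any 1 array (-0.54 to -0.38). Of 3 tested genes of the ERK5 and MEF2 pathway, which induces Klf2 and Klf4, Mef2d fell by 0.82 ± 0.18 (adjusted p = 0.0338; -0.95, -0.68 and -0.62, each without the call, on leaving out H/R array 1, H/R array 2 and control array 1), and Map2k5 differed by 0.14 ± 0.10.

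**Figure D4:**
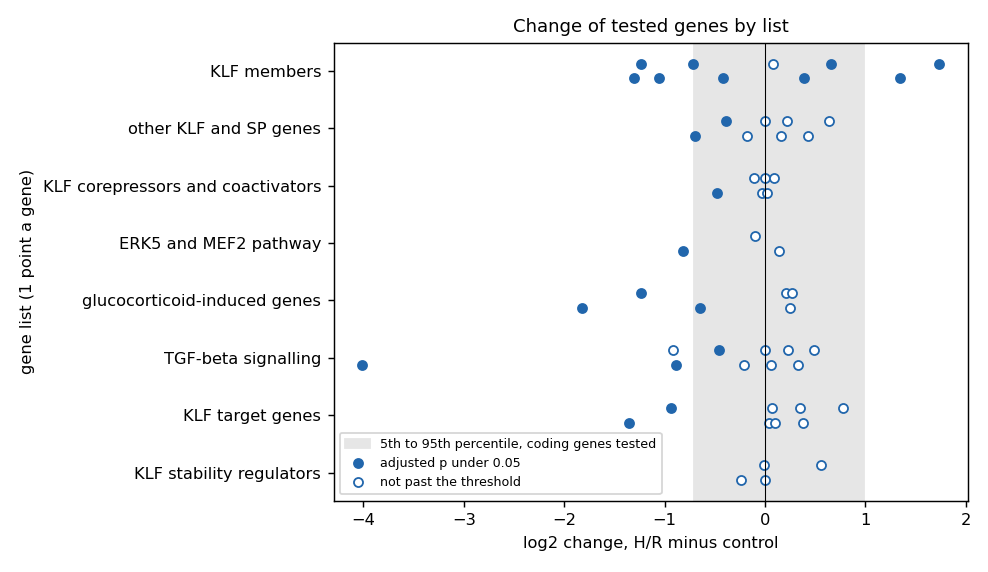
Change of each tested gene in log2 units (H/R minus control), one row a gene list and one point a gene, filled where adjusted p was under 0.05. The KLF members spread to both sides of the grey band, which runs from the 5th to the 95th percentile of protein-coding genes tested; in the other lists shown, filled points lie below 0.

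Partners and targets of KLF proteins were mostly not past the threshold. Among 6 tested corepressor and coactivator genes 1 fell and 0 rose (median -0.02), where 9.62% of all protein-coding genes tested fell and 16.2% rose. The one that fell was Ctbp2, whose product Klf3 binds, by 0.48 ± 0.09 (adjusted p = 0.0245), a call lost without any 1 array (-0.50 to -0.46), while the histone deacetylase gene Hdac1 differed by -0.10 ± 0.10. Among 8 tested genes described as KLF targets 2 fell and 0 rose (median 0.09), beside the same shares of 9.62% and 16.2%. Pdgfa, which encodes a growth factor chain under the control of Klf5, averaged 3.20 ± 0.02 in H/R and 4.14 ± 0.08 in control (log2 scale, SD, n = 2 arrays each) and fell by 0.94 ± 0.10 (adjusted p = 0.00600). Ccnd1, which encodes cyclin D1, fell by 1.36 ± 0.14, to 39.0% of control (adjusted p = 0.00606). The cell cycle inhibitor gene Cdkn1a differed by 0.38 ± 0.17 and the glucose transporter gene Slc2a4 by 0.35 ± 0.16, both short of the threshold at adjusted p of 0.181 and 0.176. Of 4 tested ubiquitin ligase genes, several of which act on KLF proteins, 0 passed in limma, and the largest differences were 0.56 ± 0.21 for Fbxo32 and -0.24 ± 0.11 for Smurf1.

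Muscle identity genes were present and did not move one way. Of 10 muscle markers tested 1 rose, 1 fell and 8 did not pass, with a median of 0.15. This count and those of the other markers below stand beside the 16.2% of all protein-coding genes tested that rose and the 9.62% that fell. The summed muscle level was 15.7 to 18.5 times the 75th percentile in H/R scans and 16.6 to 18.5 times in control scans. Tnnt2 and Myod1 moved opposite ways within that sum. The H/R arrays were apart for Des (72.4% in array 1, 272% and 278% in the scans of array 2), Myl2 (32.7%, 54.7% and 55.3%) and Myh7 (21.3%, 36.9% and 37.0%). Tnnt2, which encodes cardiac troponin T, rose 2.18-fold (adjusted p = 0.00379) and Myod1, which encodes the skeletal muscle master factor, fell by 1.48 ± 0.18 (adjusted p = 0.00814). Of 5 fibroblast markers 1, the matrix proteoglycan gene Dcn, rose, by 0.73 ± 0.14 (adjusted p = 0.0257; 0.83, 0.64 and 0.59, each without the call, on leaving out H/R array 1, H/R array 2 and control array 2), and the summed level was 64.3 to 65.7 times the 75th percentile in H/R and 51.5 to 62.0 times in control. The fibroblast sum is mostly Col1a2 (2867% to 3236% in H/R scans and 2256% to 2878% in control scans) and Col3a1 (3306% to 3538% and 2860% to 3304%). Neither of these collagen genes passed the test. Of 3 macrophage markers tested 0 passed in limma. Their summed level with the 3 dim ones was 1.24 to 1.27 times the 75th percentile in H/R and 1.13 to 1.26 times in control. The part of these differences in the changes of the Klf genes was not tested.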

How the data were processed

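Spot intensity values in the deposited scanner files were extracted by the authors with Agilent Feature Extraction 11.0.1.1 (submitters' processing notes) and, per the file headers, had background and spatial trend removed, with no scaling between arrays. A second deposited table gives log2 values of 16841 probes. It correlated with the scanner log2 values across probes at r of at least 0.9998; its column medians were 9.185, 9.182 and 9.183 in H/R and 9.187, 9.187 and 9.187 in control, so it is on a log2 scale and not centred by gene, and the sources used here do not give its normalization. Flags (coded 0 or 1) in the deposited files mark spots. One label names a mouse cortex as RNA source, against the rat line named elsewhere.

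Of 42136 non-control spots per file, those with an outlier mark were dropped. Log2 intensities were averaged per probe and the array's 75th percentile over probes was subtracted (1769, 2566 and 2634 units in H/R and 2455, 2094 and 2087 in control replicates 1 to 3). A probe was tested if every scan of 1 group or both had it well above background (15899 of 24684). Replicates 2 and 3 were averaged, and limma 3.58.1 (R 4.3.3; 2 residual and 2.86 prior degrees of freedom) gave two-sided p-values, adjusted over all probes. The fit was also run on simulated data with 200 changed probes and independent noise. The real arrays shared a slide and gave 3769 calls, so that run is no check of these calls. Python 3.11.15, pandas 2.3.3 and matplotlib 3.10.9 were used. Accessions were matched without versions to a GRCr8 gene table, which named 14274 of 15323 coding probes; a gene stands for its tested probe of highest mean signal. RefSeq lists pseudogenes of Klf4 and Klf5, whose RNA could bind the same probes, and probe sequences were not used. The files hold no mean spot signal, so normexp used the median.

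Members and lists were chosen with earlier results of these data known. Subgroups, motifs and the genes Klf1, Klf12, Nr3c1, Dusp1, Per1 and Cdkn1a were chosen for naming after values were seen. The rule otherwise named all members and, of each list, up to 3 genes of smallest adjusted p and any called gene of a count of 5 or fewer; 1 such gene is not reported here. As the numbers of only 2 arrays could pair, the samples share a number only.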

Additional observations from a re-analysis of the deposited data

How the results depend on the processing

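The number of arrays limits the precision. The members counted as changed were 9 with quantile normalization, with 6 scans as separate samples and with a filter on all 6 scans, and 8 with the median or, a choice made after seeing the data, the 75th percentile over spots. They were 0 with normexp, 2 without the filter on dim probes, 6 with the authors' deposited table and 3 to 7 when 1 array was left out. Over all probes the calls were 3769 as reported, 0 with normexp, 594 without the filter, 8309 with 6 scans as separate samples and 1008 to 2702 with 1 array left out (1091 without H/R array 1, 1008 without H/R array 2 and 2040 without control array 1). The setting with 6 scans counts 2 scans of 1 array as separate samples, with 4 residual degrees of freedom in place of 2, and so overstates the replication. It is among the alternatives counted below, which are not independent checks. Those with a single scan of array 2 reuse the same arrays, and the filter on all 6 scans left every member's change as reported. Fits with 1 array left out had 1 residual degree of freedom. The part of these settings in the counts was not tested. The split between rises and falls depended on scaling: 2358 and 1411 as reported, 1566 and 2253 with the median, 1949 and 1624 with the percentile over spots, 1987 and 1707 with quantile normalization and, in the authors' deposited table, 1692 and 1486. Of 15 alternatives with a test, Klf15 and Klf4 passed in 14 each, Klf5 in 13, Klf9 in 12, Klf3 in 11, Klf13 in 10, Klf2 and Klf10 in 8 each, Klf6 in 5 and Klf11 in 0, and the 9 called members kept their direction in all 16. The sign turned for Klf11 (-0.0468 with the median, -0.0089 without H/R array 2; up to 0.17 without H/R array 1), and under normexp for Sp4 (0.859) and Klf12 (0.843). In the second scan alone, with no test, Klf15 differed by 1.85, Klf4 by 1.41, Klf9 by -1.53 and Klf13 by -1.42. With the array number as a block 7 members and 3886 probes passed, with adjusted p of 0.0575 for Klf6 and 0.0559 for Klf10; deviations of same-numbered arrays correlated at 0.153 across probes. A second probe per gene could not be tried, since each member had 1, and counts could not be made in the second scan alone.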
